A study of Mus musculus with 18 samples.

Results

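The genes described here are 9 transcription factors that set up and maintain the macrophage lineage: Spi1, Maf, Cebpa, Cebpb, Cebpd, Klf2, Klf4, Mitf and Runx1. They are the rows of the deposited protein-coding count table whose gene name is one of these 9, and all 9 were found among its 21734 genes. Each of the 9 also passed the filter on low counts, which left 11357 genes for testing. The RNA was that of BMDMs, macrophages raised over 8 to 9 days from femur and tibia marrow with the growth factor M-CSF (10 ng/mL). The mice were 6 to 7 months old and of 129/B6 mixed strain, in 3 genotypes. Wild-type mice (WT) carry normal miR-146a, knockout mice (KO) lack it, and 3F mice are homozygous for an allele whose microRNA keeps its seed while the 3′ part is altered. The KO and 3F alleles are in the germ line of separately kept lines made from targeted embryonic stem cells, so every cell of those animals carries them. BMDMs of each genotype were harvested 16 h after a change to fresh medium, either without LPS (resting) or with 1 ng/ml LPS, a bacterial cell wall component. That gives 6 groups of 3 libraries and 18 libraries in all. The labels name 3 mice per genotype and the study calls the replicates biological, but no label ties a library to a mouse, so p-values measure the spread between these libraries, which may in part be technical.

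Macrophages arise from blood stem cells under a small set of DNA-binding proteins. PU.1, the product of Spi1, opens the enhancers of myeloid genes together with C/EBP factors, and RUNX1 acts before it in blood formation. MAF, KLF and MiT factors then shape the mature cell, and C/EBPβ and C/EBPδ are known to be induced when macrophages meet bacterial products. MiR-146a is itself induced through NF-κB and is known to lower proteins of the Toll-like receptor pathway, with IRAK1 and TRAF6 as its first described targets. The study saw more IRAK1 protein in KO BMDMs after LPS, but no change of TRAF6 in its cell experiments.

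The sequences below show what differed between the genotypes. A microRNA finds its targets mainly with its seed, bases 2 to 8, which stand in capitals. The mature miR-146a-5p lies on mouse chromosome 11 at chr11:43374435-43374456 (minus strand), and its relative miR-146b-5p, which was not targeted in any of the 3 genotypes, lies at chr19:46342790-46342811 (plus strand). Both come from RefSeq (GRCm38.p6). The small RNA sequencing of the study pointed to higher mature miR-146b in KO BMDMs, an increase it did not see in 3F BMDMs. The synthetic WT and 3F mimics, listed without their dT overhang, come from the oligonucleotide list of the study and show the design of the 3F allele. The first 12 bases of the 2 mimics are shared and all 8 bases from position 13 to 20 differ, counted from the 5′ end.
miR-146a-5p: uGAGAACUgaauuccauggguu
miR-146b-5p: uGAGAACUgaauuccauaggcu
miR-146a WT mimic: uGAGAACUgaauuccauggg
miR-146a 3F mimic: uGAGAACUgaauaagugucc
The seed was the same in all 4 of these sequences. The microRNA itself is outside the protein-coding table and was not analysed here, so the count table gave no direct check of the genotype labels.

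Matches to that seed were searched in the longest annotated 3′ UTR of each gene (Gencode M21, the same build). The site letters were AGTTCTCA (8mer) and its 7-base forms AGTTCTC and GTTCTCA. No member held an 8mer, and 3 of 9 held 1 of the 7-base forms, or 33.3%. Among the 11261 tested genes with an annotated 3′ UTR, 20.7% held a match of any of the 3 kinds and 4.62% held an 8mer. Of these 3 genes Runx1 has the longest 3′ UTR (4189 bases, against 2900 for Cebpd and 982 for Klf4), while the median over tested genes was 1171. The 3 sites are given with their flanks, from the 3′ UTR at chr16:15890653-15890681 (plus strand), chr4:55527503-55527531 (minus strand) and chr16:92601842-92601870 (minus strand), with the matching letters in capitals.
Cebpd: gtaccgactatGTTCTCAaatttaggtct
Klf4: gggggagccaaAGTTCTCcaactgctgca
Runx1: tcagaaaatgcAGTTCTCcagcctccagc
These are letter matches alone. The other 6 members, Spi1, Maf, Cebpa, Cebpb, Klf2 and Mitf, held none in the 3′ UTR searched.

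Depth ran from 4071084 to 19818043 counts per library. Levels are given as CPM, the count of a gene per 1000000 counts of its library, scaled by TMM, a correction for library composition, and, where genes are compared with each other, per kb of gene length (CPM per kb). All 11 markers of macrophage identity were above the floor of 3 counts in every group, Adgre1 and Csf1r among them at 1130 to 4900 CPM and 992 to 3940 CPM. None of 13 transcription factors of other blood lineages passed the filter on low counts, among them Gata1, Pax5, Tcf7 and Myb. The summed levels of 5 B cell and 5 mast cell markers were at most 1.17 CPM in any library. Other marker lists were higher. Neutrophil and granulocyte progenitor markers summed to 14.7 to 68.4 CPM, and T and NK cell markers to 0.449 to 11.5 CPM (Cd4 up to 11.2). Erythroid and megakaryocyte markers summed to 108 to 591 CPM (Pf4 alone 108 to 590), and dendritic cell markers to 28.8 to 227 CPM (Itgax alone 24.6 to 226). A pair of libraries stood apart from their groups. Resting KO replicate 3 had a summed level of 10 interferon response markers of 10900 CPM, against 364 and 534 CPM in the other resting KO libraries and 2670 to 15700 CPM in WT with LPS. Resting 3F replicate 3 was the shallowest library. It also lay apart over all tested genes, at 50.3 on the second principal component, against −4.5 and −5.32 in the rest of its group. Calls of members that changed without both of them, and calls of named genes that were lost, are given both ways.

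In resting WT cells Spi1 was the most abundant of the 9 transcripts, at 71.3 ± 17.3 CPM per kb (mean ± SD, n = 3 as in all values below), and Klf4 the least, at 3.91 ± 1.30 CPM per kb. Between them the order was Cebpb (54.5 ± 10.5), Cebpa (42.1 ± 2.34), Maf (31.2 ± 3.58), Mitf (23.4 ± 3.30), Cebpd (7.77 ± 1.00), Klf2 (7.58 ± 1.39) and Runx1 (6.74 ± 1.31 CPM per kb). The libraries of Spi1 and Cebpb overlapped, as did those of Cebpd with Klf2, of Klf2 with Runx1 and of Runx1 with Klf4, so these neighbours did not differ beyond their spread. With LPS the first place changed in WT and KO, while in 3F Spi1 kept it and overlapped Cebpb. The middle of the order changed in all 3 genotypes, and Klf4 stayed last in every group. Cebpb led in WT at 133 ± 10.4 CPM per kb, ahead of Spi1 at 114 ± 6.95 without overlap, and Cebpa dropped to sixth place at 19.1 ± 1.09, where its libraries overlapped those of Cebpd at 19.7 ± 1.39 CPM per kb.

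**Figure D1:**
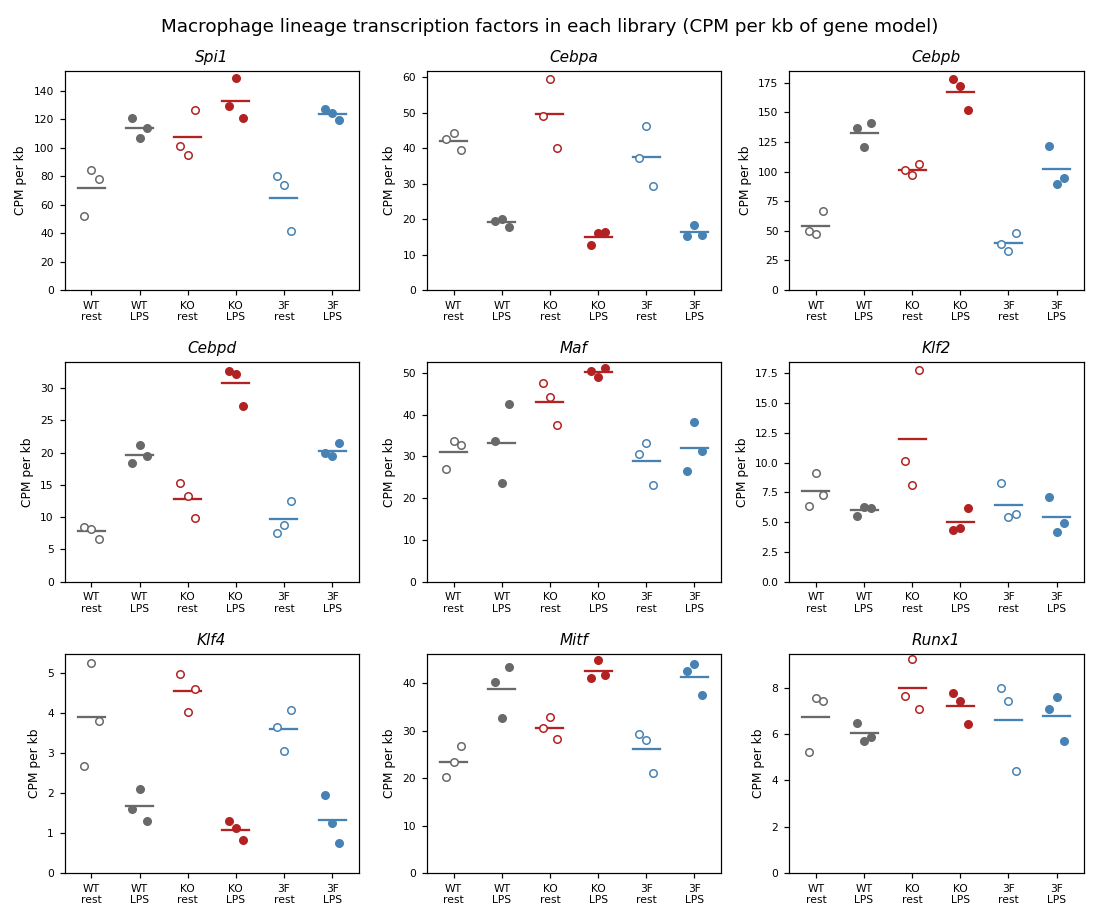
Level of each of the 9 transcription factors in each library, in TMM-scaled CPM per kb of gene length on a linear axis that starts at 0, with open points for resting and filled points for LPS libraries and a bar at the mean of 3. Cebpa and Klf4 lay lower with LPS in every genotype, with no overlap, Cebpb, Cebpd and Mitf lay higher, and resting KO replicate 3 stood at 17.8 CPM per kb for Klf2, against at most 10.1 in any other library.

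More of the 9 genes were called for LPS than for any difference between genotypes. In each genotype 6 of the 9 passed the test, which was the edgeR quasi-likelihood test with Benjamini-Hochberg adjustment over all tested genes, called under an adjusted p of 0.05. The background of called genes was 28.5% in WT, 26.9% in KO and 31.2% in 3F, against 66.7% of the members in each. The median absolute log2 fold change of the members was 0.73 in WT, 0.72 in KO and 0.92 in 3F, against 0.29, 0.30 and 0.34 over all tested genes. In all 3 genotypes Cebpb, Cebpd and Mitf rose and Cebpa and Klf4 fell. Spi1 also rose in WT and 3F, and Klf2 also fell in KO. Over the same interval the summed level of 12 cell division markers went from 1010 to 1370 CPM in resting WT to 452 to 811 CPM with LPS, and its part in these changes was not tested. In bulk RNA, fewer cells of a type and less RNA per cell cannot be told apart.

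**Figure D2:**
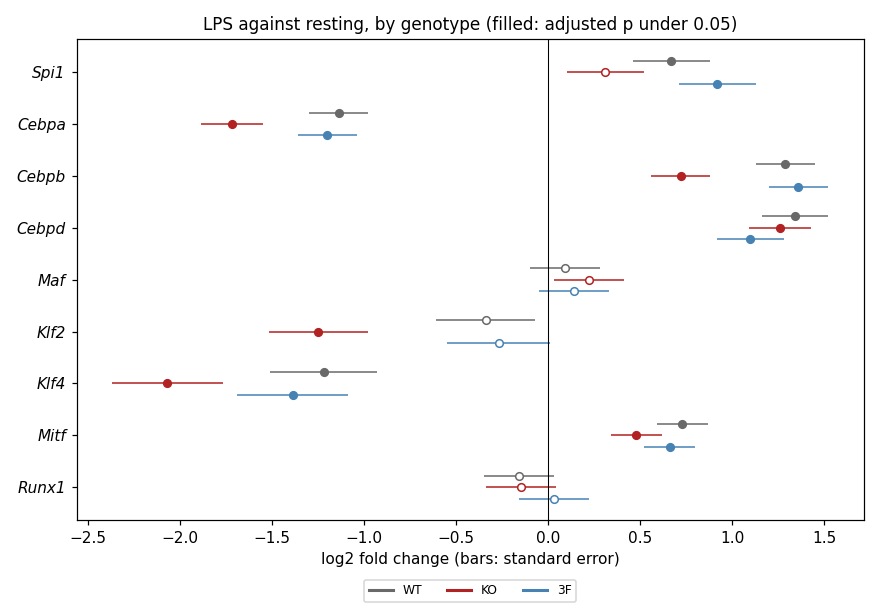
Log2 fold change of each gene between LPS and resting BMDMs, by genotype, with bars of 1 standard error and filled points for an adjusted p under 0.05. Cebpa and Klf4 sit left of 0 and Cebpb, Cebpd and Mitf right of 0 in all 3 genotypes, while Maf and Runx1 sit near 0.

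Of the C/EBP factors, Cebpa encodes the factor that commits progenitors to the myeloid line (chromosome 7, 35119293 to 35121928, plus strand, mm10). Its level in resting cells was 42.6, 44.2 and 39.6 CPM per kb in the WT libraries, 49.0, 59.5 and 40.1 in KO, and 37.3, 46.1 and 29.3 in 3F. With LPS it was 19.4, 19.9 and 17.8 CPM per kb in WT, 12.7, 16.0 and 16.5 in KO, and 15.3, 18.5 and 15.5 in 3F. Every LPS library lay below every resting library, in all genotypes. The log2 fold change was −1.14 ± 0.16 in WT (SE, adjusted p = 9.3e-05), −1.72 ± 0.17 in KO (adjusted p = 1.49e-06) and −1.20 ± 0.16 in 3F (adjusted p = 5.83e-05).

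Cebpb encodes C/EBPβ, a factor of inflammatory gene expression (chromosome 2, 167688915 to 167690418, plus strand, a gene of 1 exon). Resting libraries held 49.6, 47.3 and 66.6 CPM per kb in WT, 102, 97.3 and 106 in KO, and 38.5, 32.9 and 48.4 in 3F. LPS libraries held 137, 121 and 141 CPM per kb in WT, 178, 173 and 152 in KO, and 122, 89.8 and 94.8 in 3F. The groups of resting and LPS libraries did not overlap within any genotype, and resting KO cells lay above both other resting groups. Cebpb rose by a log2 fold change of 1.29 ± 0.16 in WT (adjusted p = 2.2e-05), 0.72 ± 0.16 in KO (adjusted p = 0.00261) and 1.36 ± 0.16 in 3F (adjusted p = 1.27e-05). Cebpb overlaps Tmem189 on the opposite strand, and Cebpd overlaps Spidr. Maf, Cebpa, Mitf and Runx1 overlap Gm15655, Gm45091, Gm15531 and Gm26626, also on the opposite strand. The reads were counted by strand.

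Cebpd encodes C/EBPδ, which is likewise induced by inflammatory signals (chromosome 16, 15887286 to 15891031, plus strand, 1 exon). It was at 8.52, 8.16 and 6.63 CPM per kb in resting WT, 15.3, 13.3 and 9.83 in resting KO, and 7.55, 8.85 and 12.5 in resting 3F libraries. With LPS it was at 18.4, 21.1 and 19.6 CPM per kb in WT, 32.7, 32.3 and 27.3 in KO, and 19.9, 19.5 and 21.5 in 3F. The LPS libraries of KO were the highest and did not overlap those of the other genotypes. Its log2 fold change with LPS was 1.34 ± 0.18 in WT, 1.26 ± 0.17 in KO and 1.10 ± 0.18 in 3F, all called (adjusted p from 4.28e-05 to 0.000243).

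Because Cebpa fell while Cebpb and Cebpd rose, the balance within the family shifted in each library. The ratio of Cebpb to Cebpa per kb was 1.07 to 1.68 in resting WT and 6.09 to 7.91 in WT with LPS. In KO it went from 1.64 to 2.65 at rest to 9.22 to 14.0 with LPS, and in 3F from 0.713 to 1.65 to 4.87 to 7.99. The KO libraries with LPS lay above all WT and 3F libraries with LPS, whereas at rest they overlapped. Cebpd over Cebpa moved likewise, from 0.168 to 0.200 in resting WT to 0.944 to 1.10 with LPS, and reached 1.65 to 2.58 in KO with LPS. These ratios are descriptions of the same counts and were not tested. Of the 4 other genes of the family list (Cebpe, Cebpg, Ddit3 and Cebpz), 1 fell in WT, 1 in KO and 2 in 3F, and none rose. Cebpg, a partner without a known activation domain, fell by 0.38 ± 0.09 on the log2 scale in WT, 0.63 ± 0.09 in KO and 0.44 ± 0.09 in 3F. Cebpz fell in 3F (log2 fold change −0.45 ± 0.11, adjusted p = 0.00414).

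**Figure D3:**
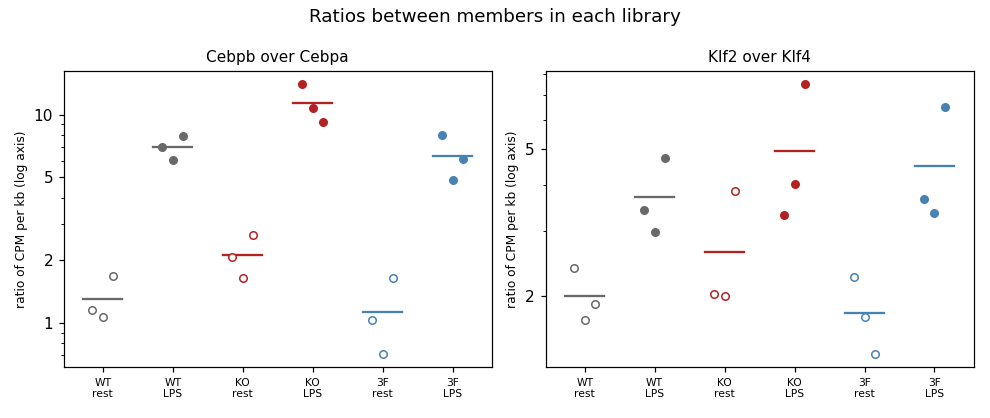
Ratio of Cebpb to Cebpa (left) and of Klf2 to Klf4 (right) in CPM per kb, per library, on log axes, with open points for resting and filled points for LPS libraries and a bar at the mean of 3. The Cebpb to Cebpa ratio lay between 0.713 and 2.65 in resting libraries and between 4.87 and 14.0 with LPS.

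Spi1 encodes PU.1 (chromosome 2, 91082390 to 91115756, plus strand). Resting levels were 51.7, 84.4 and 77.9 CPM per kb in WT, 101, 94.9 and 126 in KO, and 80.0, 73.4 and 41.2 in 3F, where the low value is that of the shallow replicate 3. LPS levels were 120, 107 and 114 CPM per kb in WT, 129, 149 and 121 in KO, and 127, 124 and 120 in 3F. With LPS all 9 libraries thus fell within 107 to 149 CPM per kb, and the wider spread was at rest. The log2 fold change was 0.67 ± 0.21 in WT (adjusted p = 0.0241) and 0.92 ± 0.21 in 3F (adjusted p = 0.00344), both called, and 0.31 ± 0.21 in KO (adjusted p = 0.30), where resting and LPS libraries overlapped. The KO value was called by limma-voom with quality weights (0.38, adjusted p = 0.00726). Without the shallow resting 3F replicate 3 the value in 3F was 0.65 (adjusted p = 0.0106). The WT call was lost without resting WT replicate 1 (log2 fold change 0.49, adjusted p = 0.106), LPS WT replicate 1 (0.63, adjusted p = 0.0748) or LPS WT replicate 3 (0.67, adjusted p = 0.0609). Of 11 other ETS factors 9 were tested, of which 3 rose and 1 fell in WT, 4 rose in KO, and 5 rose and 1 fell in 3F. Ets2, Etv6 and Elf4 were called in all 3 genotypes, in WT at log2 fold changes of 0.69 ± 0.20, 0.58 ± 0.15 and 0.53 ± 0.16. The call of Ets2 was lost in KO without resting KO replicate 3 (0.54, adjusted p = 0.0538) and in 3F without resting 3F replicate 3 (0.49, adjusted p = 0.0578), and that of Elf4 in KO without the latter (0.40, adjusted p = 0.0581).

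Genes that PU.1 and C/EBP factors are known to drive in macrophages were read as a list of 15, all tested. With LPS 9 rose in WT, 7 in KO and 10 in 3F, and none fell, with a median log2 fold change of 0.63, 0.54 and 0.97 against 0.02, 0.02 and −0.01 over all tested genes. In WT the largest called changes were those of Fcgr1, the high-affinity IgG receptor (log2 fold change 2.73 ± 0.51), Cybb, a subunit of the NADPH oxidase (2.08 ± 0.19), and Csf2rb, the shared receptor chain for GM-CSF and IL-3 (1.75 ± 0.26). Csf3r, the G-CSF receptor, and Adgre1, which encodes F4/80, led with Cybb in KO, at 1.92 ± 0.29, 1.56 ± 0.18 and 1.45 ± 0.19. Fcgr1 was not called in KO (1.29) with all libraries, and was at 2.54 (adjusted p = 1.11e-05) without resting KO replicate 3. Without both libraries that stand apart 8 of the list rose and 2 fell in KO. In 3F the leading genes were Fcgr1 (2.30 ± 0.50), Csf2rb (2.25 ± 0.27) and Cybb (2.01 ± 0.19).

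Klf2 and Klf4 encode zinc finger factors known to restrain inflammatory gene expression, and Klf4 also acts in monocyte formation. Klf4 (chromosome 4, 55527143 to 55532466, minus strand) stood at 2.67, 5.26 and 3.81 CPM per kb in resting WT, 4.99, 4.04 and 4.60 in resting KO, and 3.65, 3.06 and 4.07 in resting 3F libraries. With LPS it stood at 1.60, 2.1 and 1.30 CPM per kb in WT, 1.31, 1.12 and 0.819 in KO, and 1.95, 1.24 and 0.757 in 3F. No LPS library reached a resting library of its genotype, although the counts behind these values were low, at 18 to 94 per LPS library. Its log2 fold change was −1.22 ± 0.29 in WT (adjusted p = 0.00474), −2.07 ± 0.30 in KO (adjusted p = 9.04e-05) and −1.39 ± 0.30 in 3F (adjusted p = 0.00241).

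Klf2 (chromosome 8, 72319033 to 72321656, plus strand) was at 6.37, 9.09 and 7.28 CPM per kb in resting WT, 10.1, 8.07 and 17.8 in resting KO, and 8.25, 5.40 and 5.70 in resting 3F libraries. LPS levels were 5.48, 6.28 and 6.15 CPM per kb in WT, 4.36, 4.51 and 6.14 in KO, and 7.14, 4.18 and 4.93 in 3F. The value of 17.8 belongs to resting KO replicate 3, the library with the high interferon markers. The log2 fold change with LPS was −1.25 ± 0.27 in KO (adjusted p = 0.00285), and without that library −0.86 (adjusted p = 0.00958). In WT it was −0.34 ± 0.27 (adjusted p = 0.382) and in 3F −0.27 ± 0.28 (adjusted p = 0.49), neither called. Of 14 other KLF genes 9 were tested, of which 2 rose and 2 fell in WT, 2 rose and 3 fell in KO, and 3 rose and 1 fell in 3F. Klf9 fell and Klf7 rose in every genotype, in WT by log2 fold changes of −1.63 ± 0.28 and 1.49 ± 0.23, in KO of −2.39 ± 0.29 and 1.42 ± 0.23, and in 3F of −1.62 ± 0.29 and 1.61 ± 0.23. Klf3 also rose in all 3 genotypes (0.60 ± 0.15 in WT, 0.91 ± 0.15 in KO, 0.84 ± 0.15 in 3F). Klf11 fell in WT (−0.77 ± 0.21) and KO (−0.84 ± 0.21) and was at −0.55 ± 0.21 (adjusted p = 0.058) in 3F. In 3F Klf11 was called without resting KO replicate 3 (−0.54, adjusted p = 0.0457). Klf8 fell in KO (−1.0 ± 0.27) and was at −0.24 ± 0.26 in WT and −0.68 ± 0.27 in 3F, neither called with all libraries. Without resting 3F replicate 3 Klf8 was called in 3F (−0.89, adjusted p = 0.0159). For none of the 9 tested KLF relatives was a difference of KO or 3F from WT in the LPS response called. For Klf2 it was not called either (adjusted p of the interaction 0.923 for KO and 0.996 for 3F).

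The promoters of Cebpa, Cebpb and Klf4 are shown because the first and last of these genes fell and Cebpb rose in all genotypes. Each is the 250 bases before the RefSeq start (GRCm38.p6), at chr7:35119043-35119292 (plus strand), chr2:167688665-167688914 (plus strand) and chr4:55532476-55532725 (minus strand). Capitals mark matches on either strand to TTGCNNAA, a motif of C/EBP factors, GAGGAA, a core of PU.1 sites, TGTGGT, read by RUNX factors, CACGTG, the E-box of MiT factors, TGACG, the shorter form of the cAMP response element, TATAAA, the core promoter element, or the NF-κB consensus, which is given by name.
Cebpa: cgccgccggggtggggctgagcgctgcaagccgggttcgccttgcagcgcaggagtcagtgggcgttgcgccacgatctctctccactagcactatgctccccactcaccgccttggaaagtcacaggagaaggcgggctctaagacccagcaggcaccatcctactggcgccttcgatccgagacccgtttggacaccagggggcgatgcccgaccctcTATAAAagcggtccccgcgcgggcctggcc
Cebpb: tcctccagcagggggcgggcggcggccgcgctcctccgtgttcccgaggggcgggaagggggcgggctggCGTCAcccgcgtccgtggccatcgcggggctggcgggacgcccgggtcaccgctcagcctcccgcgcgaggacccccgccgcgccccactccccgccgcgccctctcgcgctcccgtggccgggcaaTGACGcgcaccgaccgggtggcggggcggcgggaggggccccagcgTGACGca
Klf4: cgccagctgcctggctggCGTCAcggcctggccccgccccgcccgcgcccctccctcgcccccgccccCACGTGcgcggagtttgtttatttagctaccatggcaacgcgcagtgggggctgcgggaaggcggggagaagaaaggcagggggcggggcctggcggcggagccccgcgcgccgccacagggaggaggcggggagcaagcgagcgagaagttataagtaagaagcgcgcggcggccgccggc
The Cebpa window held a TATAAA 30 bases before the start and no other of these motifs. The Cebpb window held TGACG at 3 places, 180, 53 and 7 bases before the start, and the Klf4 window held TGACG at 232 bases and CACGTG at 182 bases. Of 32851 promoters in the RefSeq table, 9.56% held the C/EBP motif, 23.3% the PU.1 core, 14.0% the RUNX motif, 6.02% the E-box, 17.8% the cAMP element, 12.4% the core promoter element and 7.25% the NF-κB consensus. The letters GGGCGG, a GC box found in 32.7% of promoters, occurred 5 times in the Cebpb window, 4 times in that of Klf4 and not in that of Cebpa. CACCC, bound by KLF factors and found in 52.0% of promoters, occurred once in the Cebpa and at 2 places in the Cebpb window. A promoter entry matched 6 of the 9 members, those of Cebpa, Cebpb, Klf2, Klf4, Mitf and Runx1. Spi1, Maf and Cebpd had none. Mitf also rose in all genotypes and has 3 start sites, whose windows are not printed. The first held the C/EBP motif 129 bases and the RUNX motif 81 bases before the start. The second held the NF-κB consensus at 177 bases, and the third TGACG at 153 and 150 bases and TATAAA at 175 bases.

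Mitf encodes a factor of osteoclasts and lysosomes (chromosome 6, 97807052 to 98021349, plus strand). It stood at 20.1, 23.4 and 26.7 CPM per kb in resting WT, 30.5, 32.9 and 28.2 in resting KO, and 29.4, 28.1 and 21.1 in resting 3F libraries. With LPS it stood at 40.2, 32.7 and 43.4 CPM per kb in WT, 41.1, 45.0 and 41.7 in KO, and 42.5, 44.0 and 37.6 in 3F. Resting and LPS libraries did not overlap in any genotype. The rise was 0.73 ± 0.14 on the log2 scale in WT (adjusted p = 0.00116), 0.48 ± 0.14 in KO (adjusted p = 0.0177) and 0.66 ± 0.14 in 3F (adjusted p = 0.00232). The KO call was lost without resting KO replicate 1 (0.48, adjusted p = 0.0539) or LPS KO replicate 2 (0.39, adjusted p = 0.131), and when low genes were not filtered (0.42, adjusted p = 0.084). Its relatives moved apart. Tfec rose in WT (0.60 ± 0.21) and KO (0.75 ± 0.21), Tfeb, a factor of lysosome genes, fell in WT (−0.29 ± 0.10) and KO (−0.62 ± 0.10), and Tfe3 rose in 3F (0.54 ± 0.20). The Tfe3 call was lost without resting 3F replicate 3 (0.27, adjusted p = 0.226). In 3F Tfec was at 0.46 ± 0.21 and Tfeb at −0.21 ± 0.10, neither called with all libraries, and both were called without the libraries that stand apart (0.61, adjusted p = 0.00592, and −0.28, adjusted p = 0.0396).

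Of 8 osteoclast and lysosome genes that Mitf is known to drive, 7 were tested. In WT 2 rose and 2 fell, in KO 2 rose and 4 fell, and in 3F 2 rose and 2 fell. These counts depended on the libraries that stand apart, as 2 genes named after their values were seen show. Ctsk fell in KO (−0.84) and was not called without resting KO replicate 3 (−0.24, adjusted p = 0.318). Without both libraries Mcoln1 was called lower in WT (−0.43, adjusted p = 0.00507) and 3F (−0.44, adjusted p = 0.00994), where it was not called before. Acp5, tartrate-resistant acid phosphatase, had the largest rise, with log2 fold changes of 3.15 ± 0.28 in WT, 3.29 ± 0.27 in KO and 3.25 ± 0.28 in 3F. Clcn7, a lysosomal chloride transporter, rose by 1.33 ± 0.18, 1.24 ± 0.18 and 1.5 ± 0.18. Atp6v0d2, a subunit of the vacuolar proton pump, fell, with log2 fold changes of −2.08 ± 0.40 in WT, −2.45 ± 0.41 in KO and −2.26 ± 0.40 in 3F. The list as a whole therefore did not move 1 way, and its median log2 fold change was −0.03 in WT, −0.70 in KO and −0.20 in 3F.

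Maf and Runx1 were not called for LPS in any genotype. Maf encodes c-MAF (chromosome 8, 115682942 to 115707794, minus strand), a factor of mature and anti-inflammatory macrophages. It held 27.0, 33.6 and 32.8 CPM per kb in resting WT, 47.5, 44.3 and 37.5 in resting KO, and 30.5, 33.2 and 23.2 in resting 3F libraries. With LPS it held 33.6, 23.6 and 42.6 CPM per kb in WT, 50.6, 49.1 and 51.2 in KO, and 26.5, 38.2 and 31.3 in 3F. All 3 KO libraries lay above those of WT and 3F in both states. The log2 fold change with LPS was 0.09 ± 0.19 in WT (95% interval −0.31 to 0.50), 0.22 ± 0.19 in KO (−0.18 to 0.63) and 0.14 ± 0.19 in 3F (−0.26 to 0.55). Of its 6 listed relatives 4 were tested, and Mafg rose in all 3 genotypes (0.56 ± 0.14 in WT, 0.38 ± 0.14 in KO, 0.50 ± 0.14 in 3F) and Mafk in WT (0.67 ± 0.23). The Mafg call was lost in KO without resting KO replicate 3 (0.25, adjusted p = 0.148) or resting 3F replicate 3 (0.32, adjusted p = 0.0634), and in 3F without the latter (0.35, adjusted p = 0.0749).

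Runx1 (chromosome 16, 92601466 to 92826149, minus strand) encodes a factor needed for the first blood stem cells. It ranged from 5.23 to 7.55 CPM per kb in resting WT, 7.08 to 9.23 in resting KO and 4.43 to 8.01 in resting 3F. With LPS it ranged from 5.72 to 6.50 CPM per kb in WT, 6.45 to 7.80 in KO and 5.72 to 7.61 in 3F. Resting and LPS libraries overlapped in every genotype. The log2 fold change was −0.16 ± 0.19 in WT (95% interval −0.57 to 0.25), −0.15 ± 0.19 in KO (−0.55 to 0.26) and 0.03 ± 0.19 in 3F (−0.38 to 0.43), all of which leave out a rise or fall of 1 on the log2 scale. Without resting 3F replicate 3 the 3F value was −0.22. Of 5 genes listed with it (Runx2, Runx3, its partner Cbfb, Runx1t1 and Cbfa2t3) 3 were tested and 1, Runx2, fell in all 3 genotypes, in WT with a log2 fold change of −1.84 ± 0.35 and a resting level of 2.90 CPM. Runx2 was named after its values were seen, since it lies below the level set for naming.

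Resting KO macrophages held more Cebpb and Cebpd RNA than resting WT macrophages. In the comparison of resting KO with resting WT, 2 of the 9 were called, both higher in KO, or 22.2% against a background of 9.40% of all tested genes. Cebpb was higher by a log2 fold change of 0.90 ± 0.16 (1.87-fold, adjusted p = 0.003) and Cebpd by 0.72 ± 0.18 (1.65-fold, adjusted p = 0.0168), with no overlap between the libraries listed above. All 9 genes had a positive log2 fold change, with a median of 0.47 against 0.02 over all tested genes, but for the other 7 the adjusted p was 0.09 or more. Spi1 (0.59 ± 0.21, adjusted p = 0.09), Maf (0.47 ± 0.19, adjusted p = 0.147) and Mitf (0.38 ± 0.14, adjusted p = 0.102) did not overlap between the genotypes either. The share of all tested genes without overlap was not counted in any comparison, so such separation only describes these libraries. Leaving out resting KO replicate 3 kept the calls of Cebpb (0.87, adjusted p = 0.00734) and Cebpd (0.88, adjusted p = 0.00615), and the value of Klf2 went from 0.65 ± 0.27 to 0.27. Without that library and resting 3F replicate 3 together, a setting added after the data were seen, 5 genes were called: Cebpb, Cebpd, Spi1 (0.48, adjusted p = 0.0434), Maf (0.58, adjusted p = 0.044) and Mitf (0.46, adjusted p = 0.0222). The call of Cebpd was lost without resting WT replicate 2 (adjusted p = 0.054), resting WT replicate 3 (adjusted p = 0.0699) or resting KO replicate 1 (adjusted p = 0.0665), and in a fit of only these groups (0.71, adjusted p = 0.0971).

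Other measures moved with the KO genotype at rest. Of the 11 macrophage identity markers Csf1r (0.81 ± 0.18) and Fcgr1 were called higher in KO, Itgam was called lower and the other 8 were not called, among them Adgre1 (0.04 ± 0.18) and Cd68 (−0.11 ± 0.18). Their summed level was 65900 to 68100 CPM in KO and 35900 to 52300 CPM in WT, but Lyz2, which encodes lysozyme, made up 73.8% to 81.4% of it in these libraries. Without Lyz2 the sum was 12600 to 12900 CPM in KO and 9400 to 10900 CPM in WT. The cell division markers summed to 416 to 521 CPM in KO and 1010 to 1370 CPM in WT, and 6 dendritic cell markers to 79.4 to 155 CPM and 40.0 to 60.0 CPM. Only 1 of those 6, Itgax, was above the floor in every library of the group. The interferon response markers summed to at least 364 CPM in KO and at most 182 CPM in WT. Their part in the difference of Cebpb and Cebpd was not tested. Among the 15 PU.1 and C/EBP target genes 4 were higher in resting KO, led by Fcgr1 (1.79 ± 0.49), Csf2rb (0.99 ± 0.26) and Cybb (0.96 ± 0.18), and 1 was lower, Itgam, which encodes CD11b (−0.71 ± 0.15, adjusted p = 0.0082, named after its values were seen). Fcgr1 had an SD of 529 around a mean of 526 CPM in resting KO, and without resting KO replicate 3 its log2 fold change was 0.54 (adjusted p = 0.286). Csf2rb was at 0.71 (adjusted p = 0.0951) without that library. Without both libraries that stand apart 7 of the 15 were higher and 1 lower.

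With LPS, 1 of the 9 differed between KO and WT, or 11.1% against a background of 4.79%. Cebpd was higher in KO by 0.64 ± 0.17 on the log2 scale (1.56-fold, adjusted p = 0.0408), with no overlap between libraries. This call sits at the threshold and was lost on leaving out any of 11 of the 18 libraries, among them all 9 LPS libraries (adjusted p from 0.0501 to 0.162), and with the replicate number as a block (adjusted p = 0.055). Libraries of Maf, Spi1, Cebpb and, lower in KO, Cebpa did not overlap between the genotypes either, and none of these was called in the main fit. Maf (0.60 ± 0.19, adjusted p = 0.0855) was called by DESeq2 (adjusted p = 0.0445) and by limma-voom with quality weights (adjusted p = 0.00737), which also called Cebpa (−0.40, adjusted p = 0.0479). Without both resting libraries that stand apart Maf was called too (0.58, adjusted p = 0.0289), and Cebpd was at 0.63 (adjusted p = 0.00119). Cebpb had a log2 fold change of 0.33 ± 0.16 (adjusted p = 0.269), Cebpa of −0.34 ± 0.16 (adjusted p = 0.286) and Klf4 of −0.62 ± 0.31 (adjusted p = 0.302). Among the relatives Klf3 was higher (0.68 ± 0.15, adjusted p = 0.0147) and Klf10 lower (−0.43 ± 0.11, adjusted p = 0.0373) in KO. Of the 7 tested Mitf target genes 1 was called, Acp5, higher in KO (0.96 ± 0.24, adjusted p = 0.0326), against a list median of −0.22. Of the 15 PU.1 and C/EBP target genes 1 was called, Itgam, lower (−0.59 ± 0.15, adjusted p = 0.0315), against a list median of 0.25. Without both libraries that stand apart Ctsk (−0.51), Atp6v0d2 (−0.86) and Gpnmb (−0.42) were also called lower (adjusted p from 0.0214 to 0.0226). Csf1r (0.38), Csf3r (0.93) and Lyz2 (0.55) were then called higher (adjusted p from 0.0073 to 0.0411). The dendritic cell markers, of which Itgax alone was above the floor in every library of either group, summed to 164 to 227 CPM in KO and 36.9 to 41.2 CPM in WT with LPS. The cell division markers summed to 269 to 351 CPM in KO and 452 to 811 CPM in WT, and the macrophage identity markers, again mostly Lyz2, to 76200 to 93500 CPM and 49600 to 65400 CPM. Of the 11 identity markers Cd163 was called higher in KO (0.97 ± 0.25, adjusted p = 0.0346) and Itgam lower. The part of these marker lists in the difference of Cebpd was not tested.

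The altered 3′ part of miR-146a gave no called difference in these genes. In 3F against WT none of the 9 was called at rest or with LPS. The background was 0% at rest, where 557 of 11357 genes had an unadjusted p under 0.05, and 0.00881% with LPS, where 106 did. Over the alternatives run, all genes together gave at most 2 calls in either state. Cebpb was the only member with an unadjusted p under 0.05, in both states, with a log2 fold change of −0.46 ± 0.16 at rest (95% interval −0.79 to −0.12, adjusted p = 0.843) and of −0.38 ± 0.16 with LPS (−0.71 to −0.05, adjusted p = 1.00), with overlapping libraries in both. The intervals of the other 8 at rest reached at most 0.66 upward, for Cebpd, and −0.80 downward, for Klf2, so differences of a size inside these intervals are not left out by these data. Without resting 3F replicate 3 the resting value of Cebpb was −0.61 (adjusted p = 1.00).

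**Figure D4:**
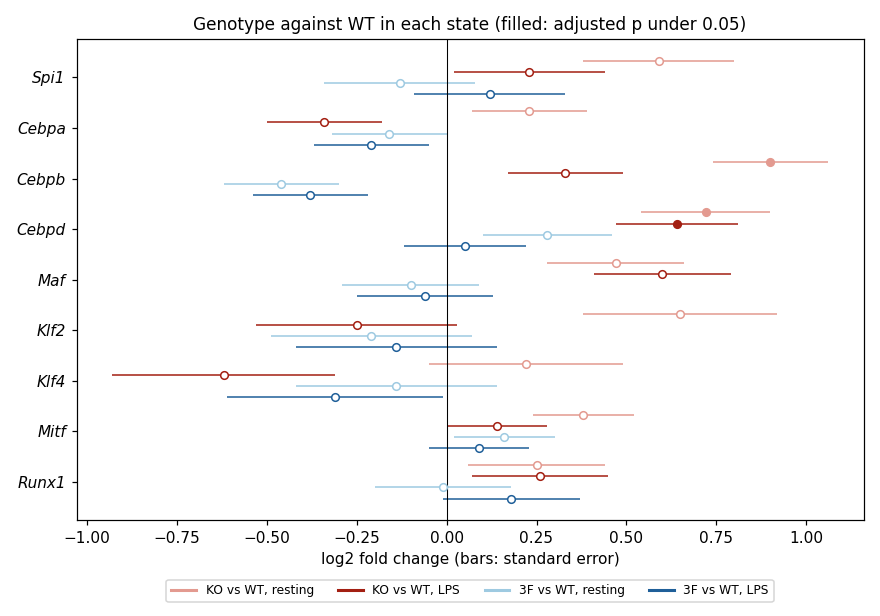
Log2 fold change of each gene in KO and in 3F against WT, at rest and with LPS, with bars of 1 standard error and filled points for an adjusted p under 0.05. The filled points are Cebpb at rest and Cebpd at rest and with LPS, all for KO, and Cebpb lies to the right of 0 for KO and to the left for 3F.

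KO was also compared with 3F, that is, no miR-146a with a miR-146a of altered 3′ part. This comparison shares its KO libraries with the one against WT and is not independent of it. At rest 3 of the 9 were higher in KO, or 33.3% against a background of 12.9%. Cebpb was higher by 1.36 ± 0.16 on the log2 scale (2.56-fold, adjusted p = 0.000252) and Spi1 by 0.72 ± 0.21 (adjusted p = 0.0344), both without overlap, and Klf2 by 0.86 ± 0.27 (adjusted p = 0.0482), with overlap. The value of Klf2 was 0.48 (adjusted p = 0.20) without resting KO replicate 3 and its call was lost on leaving out any of 14 of the 18 libraries. The call of Spi1 was lost without resting KO replicate 1 (adjusted p = 0.0535), resting KO replicate 3 (0.59, adjusted p = 0.0993) or resting 3F replicate 3 (0.49, adjusted p = 0.0945). Klf2 was also not called with the replicate number as a block (0.82, adjusted p = 0.0634). Cebpd was at 0.44 ± 0.18 (adjusted p = 0.103), with overlap, and was called without resting KO replicate 3 (0.61, adjusted p = 0.0378), without resting 3F replicate 3 (0.66, adjusted p = 0.0311), without both (0.83, adjusted p = 0.00202) and by limma-voom (0.76, adjusted p = 0.000145). Without both libraries Cebpb was at 1.5 (adjusted p = 0.000186), Spi1 at 0.38 (adjusted p = 0.191) and Klf2 at 0.44 (adjusted p = 0.331). In a fit of only these groups, which hold both libraries that stand apart, none of the 3 was called, Cebpb at 1.35 (adjusted p = 0.0617). Maf was at 0.57 ± 0.19 (adjusted p = 0.0592), without overlap. It was called by DESeq2 (0.58, adjusted p = 0.0299) and limma-voom (0.52, adjusted p = 0.0103), but not without both libraries (0.55, adjusted p = 0.116). With LPS 1 of the 9 was higher in KO, or 11.1% against 3.88%, namely Cebpb (0.71 ± 0.16, adjusted p = 0.0183). It was lost without LPS KO replicate 1 (0.67, adjusted p = 0.0768), LPS KO replicate 2 (0.69, adjusted p = 0.0736), LPS 3F replicate 2 (0.63, adjusted p = 0.0706) or LPS 3F replicate 3 (0.66, adjusted p = 0.0943). Maf (0.65 ± 0.19, adjusted p = 0.0709) and Cebpd (0.60 ± 0.17, adjusted p = 0.0636) did not overlap between these groups, and both were called without the 2 resting libraries that stand apart (0.64, adjusted p = 0.0207, and 0.59, adjusted p = 0.00228). Marker sums moved here too. The cell division markers summed to 416 to 521 CPM in KO and 792 to 1210 CPM in 3F at rest, and to 269 to 351 CPM and 393 to 779 CPM with LPS. The dendritic cell markers summed to 79.4 to 155 CPM in KO and 28.8 to 65.4 CPM in 3F at rest, and to 164 to 227 CPM and 40.4 to 57.7 CPM with LPS. The interferon response markers summed to at least 364 CPM in KO and at most 153 CPM in 3F at rest, and to 10000 to 13500 CPM and 4900 to 7260 CPM with LPS. Their part in these differences was not tested. Of the 15 PU.1 and C/EBP target genes 4 were higher and 1 lower in KO at rest, led by Csf2rb (1.29 ± 0.26), Csf1r, the M-CSF receptor (1.05 ± 0.18), and Cybb (0.81 ± 0.18), and with LPS 1 was lower, Itgam (−0.60 ± 0.15). At rest 2 were higher and 1 lower without both libraries that stand apart, where Cybb was at 0.50 (adjusted p = 0.0738).

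Whether the LPS response itself differed between genotypes was tested with an interaction term. None of the 9 was called for KO against WT, where the background was 0.00881%, or for 3F against WT, where it was 0%. At an unadjusted p under 0.05 there were 3 members for KO (560 of 11357 genes) and 0 for 3F (203 genes). These were Cebpa (log2 interaction −0.58 ± 0.23, 95% interval −1.06 to −0.09, adjusted p = 0.862), Cebpb (−0.57 ± 0.22, interval −1.03 to −0.10, adjusted p = 0.833) and Klf2 (−0.90 ± 0.38, interval −1.72 to −0.09, adjusted p = 0.923). For Klf2 the value without resting KO replicate 3 was −0.52. That Spi1 was called for LPS in WT and 3F but not in KO was therefore not shown to be a difference (interaction −0.37 ± 0.29, interval −0.99 to 0.26). For 3F the interactions ran from −0.24 ± 0.25 for Cebpd to 0.25 ± 0.29 for Spi1, which was at 0.01 without resting 3F replicate 3.

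As a description over libraries that share the LPS contrast, Pearson's r of log2 CPM was 0.87 between Spi1 and Mitf, 0.85 between Cebpb and Cebpd and 0.88 between Cebpa and Klf4, and −0.84 between Cebpa and Cebpd. Among 7247 genes with an average log2 CPM of at least 4, those most like Maf were Mertk, a receptor for apoptotic cells (r = 0.943), and Ctdp1 (r = 0.90). Spi1 was most like Mark2 (0.983), Cebpa like Tns1 (0.98) and Kif13b (0.975), and Cebpb like Filip1l (0.939) and Smad6 (0.937). Cebpd was most like Nlrc4, an inflammasome sensor (0.97), and Clec4a2 (0.962). For Klf2 they were Car5b (0.917) and Fam129a (0.876), for Klf4 Eepd1 (0.924) and Arl4c (0.919), and for Mitf Slc12a4 (0.974) and Slc16a10 (0.966). Runx1 was most like Gsk3b (0.90) and Irak1 (0.89), the latter a known miR-146a target.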

How the data were processed

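RNA of 18 BMDM libraries was read as raw counts. The authors depleted ribosomal RNA, made directional libraries, trimmed reads with cutadapt 1.8.3, removed ribosomal DNA reads, aligned the rest to mm10 with HISAT2 2.1.0 and counted them by strand per Gencode M15 gene with featureCounts 1.5.3. The deposited table holds whole-number counts for 21734 protein-coding genes, and all its 18 sample columns were mapped to a group by the labels.

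Counts were analysed in R 4.3.3 with edgeR 4.0.16. Genes were kept by filterByExpr (11357), scaled by TMM (factors 0.812 to 1.15), and fitted in 1 quasi-likelihood model with a coefficient per group and no covariate, since the study names no count test for these data. Each of the 11 comparisons used a two-sided test with Benjamini-Hochberg adjustment across the 11357 genes. SE is the log2 fold change divided by the square root of F. The test was checked on simulated counts. Alternatives were RLE size factors, no filter, DESeq2 1.42.0, limma-voom (limma 3.58.1) with quality weights, fits of the compared groups only, replicate blocks and leaving out each library. 

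All 9 members were tested in every comparison and each called member is named, while uncalled members are not all listed. From each list, up to 3 called genes of the largest absolute log2 fold change with an average log2 CPM of at least 1 are named, and for each member the 2 genes of highest r, of which 1 is not reported here. The members and lists were chosen with earlier results of these data known. Gene positions come from Gencode M21, where 21679 IDs were found. With a depth of 4071084 to 19818043 counts per library, a floor of 3 counts was used, and such limits cover counting error only. No pair of replicates was alike within sampling noise.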

Additional observations from a re-analysis of the deposited data

How the results depend on the processing

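Of 280 counts of called members under the alternatives, 243 stayed within 1.5 times the reported count. For the LPS response, the 18 calls of members gave 468 values under alternatives, of which 462 were still called, 6 were not and none changed direction. Of the LPS values not called, that of Spi1 in KO was called by limma-voom (0.38, adjusted p = 0.00726). The counts that moved by more than 1.5 times concern genotype differences. DESeq2 called 2 members for KO against WT with LPS and 3 for KO against 3F with LPS. Fits of only the compared groups called 1 for KO against WT at rest, 0 for KO against 3F at rest and 3 for KO against 3F with LPS. Limma-voom with quality weights called 5 and 3 for KO against WT at rest and with LPS, and 5 and 3 for KO against 3F. Without both resting libraries that stand apart, a setting added after the data were seen, the counts were 5 and 2 for KO against WT at rest and with LPS and 3 for KO against 3F with LPS. Leaving out 1 library at a time gave 1 to 4 and 0 to 1 for KO against WT at rest and with LPS, 1 to 3 and 0 to 3 for KO against 3F, 5 to 6 for LPS in WT and in KO, 6 for LPS in 3F and 0 for 3F against WT and for both interactions. The cause of these differences was not tested.

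Over all genes the reported counts and their ranges over the alternatives were 1067 (392 to 2259) and 544 (180 to 1777) for KO against WT at rest and with LPS, 1464 (16 to 2916) and 441 (142 to 1842) for KO against 3F, 3240 (2213 to 5218), 3059 (2154 to 6073) and 3546 (2474 to 5478) for LPS in WT, KO and 3F, and 1 (0 to 57) for the KO interaction, while 3F against WT stayed between 0 and 2. Values of uncalled members near 0 changed sign by more than their standard error 11 times in 2520, among them Spi1 (0.11) and Runx1 (0.20) in 3F against WT at rest without resting 3F replicate 3. Scaling by RLE moved none of 54 levels by more than the SD.

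Replicate numbers are shared across groups, and the count columns carry a letter for each number that is shared by resting and LPS libraries. The labels do not say what it marks. For its small RNA libraries the study gives such letters as names of BMDM cultures, so same-lettered libraries of a genotype may share a culture, which is not stated for the libraries used here. Correlations of same-numbered resting and LPS libraries within a genotype ran from 0.03 to 0.32, and in 8 of 9 cases the same number was the best match, a hint from the data and not from the design. With the replicate number as a block, 0 members were called for KO against WT with LPS in place of 1, since Cebpd was lost, and 2 for KO against 3F at rest in place of 3, since Klf2 was lost. The other counts of members were as reported with that block, and so were the LPS responses and interactions with a block for genotype and number together.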
